A study of Danio rerio with 11 samples.

Results

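Apolipoproteins are the proteins that coat blood-borne lipid particles, and 8 genes of this system were described here in whole zebrafish embryos: apoa1a, apoa1b, apoa2, apobb.1, apoc1, apoea, apoeb and mttp. They were chosen by name, from a list of 9 apolipoprotein and lipoprotein assembly genes, among 30243 genes with values, and apoba, the remaining gene of that list, was not analysed here. The embryos were 48 hours old and of 2 genotypes, a knockout of aldh3a1 (aldh3a1_KO, 6 libraries) and wild type (WT, 5 libraries). The protein made from aldh3a1 is an aldehyde dehydrogenase, which clears reactive aldehydes. Embryos of both genotypes carried the transgene fli1:EGFP, a green reporter in blood vessels, and grew in E3 medium, with no word on which of them also received the pigment inhibitor PTU. The labels give neither the nature of the mutation nor the clutch or number of embryos behind a library, so the p-values rest on the spread between 11 libraries, which may be technical in part.

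A zebrafish embryo of this age still lives on maternal yolk. In fish, the yolk syncytial layer, a sheet of tissue around the yolk, packs yolk lipid into particles built on apolipoprotein B, and liver and intestine take over this task later. Microsomal triglyceride transfer protein, the product of mttp, loads lipid onto apolipoprotein B in the endoplasmic reticulum while the particle forms. Apolipoproteins of the A, C and E classes are smaller, move between particles, and guide lipases, lipid transfer and uptake by receptors.

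The libraries held 9217936 to 17165804 estimated counts in aldh3a1_KO and 18084798 to 19972027 in WT. Transcripts of the 13 protein genes encoded by mitochondrial DNA took 5.01 to 25.9% of the counts in aldh3a1_KO and 4.63 to 5.62% in WT, and the highest shares were in aldh3a1_KO 1, 5 and 6. These 13 genes rose in aldh3a1_KO, and 12 of 12 skin markers fell (11 of 12 by DESeq2). Over all genes tested, 26.0% rose and 29.3% fell. The skin markers had a summed level of 2649 to 6637 CPM (estimated counts relative to the library total, scaled between libraries by the TMM method) in aldh3a1_KO and 11713 to 18601 CPM in WT. The aldh3a1 transcript itself was detected in each of the 11 libraries, at 1.95 to 5.08 CPM in aldh3a1_KO, with a median of 3.98. In WT it was at 5.65, 5.18, 4.39, 5.85 and 7.88 CPM, so the ranges overlapped. Its log2 fold change was -0.62 ± 0.27 (SE, n = 6 and 5, edgeR adjusted p = 0.0621), and since the labels do not place the mutation this level is no check of them. Differences were tested with edgeR over 22182 genes, and a gene was called changed at an adjusted p under 0.05. Only genes with enough counts in enough libraries were tested. Among the skin markers, cldni passed this count filter only through the WT libraries, so its direction was largely set by the filter.

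Of the 8 genes, 1 changed with genotype: mttp fell, with a fitted fold of 0.294 (95% interval 0.149 to 0.580), and 0 of 7 apolipoprotein genes were called by edgeR, DESeq2 or limma voom, or had an unadjusted edgeR p under 0.05. mttp passed the count filter only through the WT libraries, where it is high, which largely set its direction. Over all genes tested, 55.3% were called changed, 26.0% higher and 29.3% lower in aldh3a1_KO. The 7 apolipoprotein genes varied by up to 47.1-fold between libraries of the same genotype, and they did so together. In bulk tissue, fewer cells of a type and less RNA per cell cannot be told apart.

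**Figure D1:**
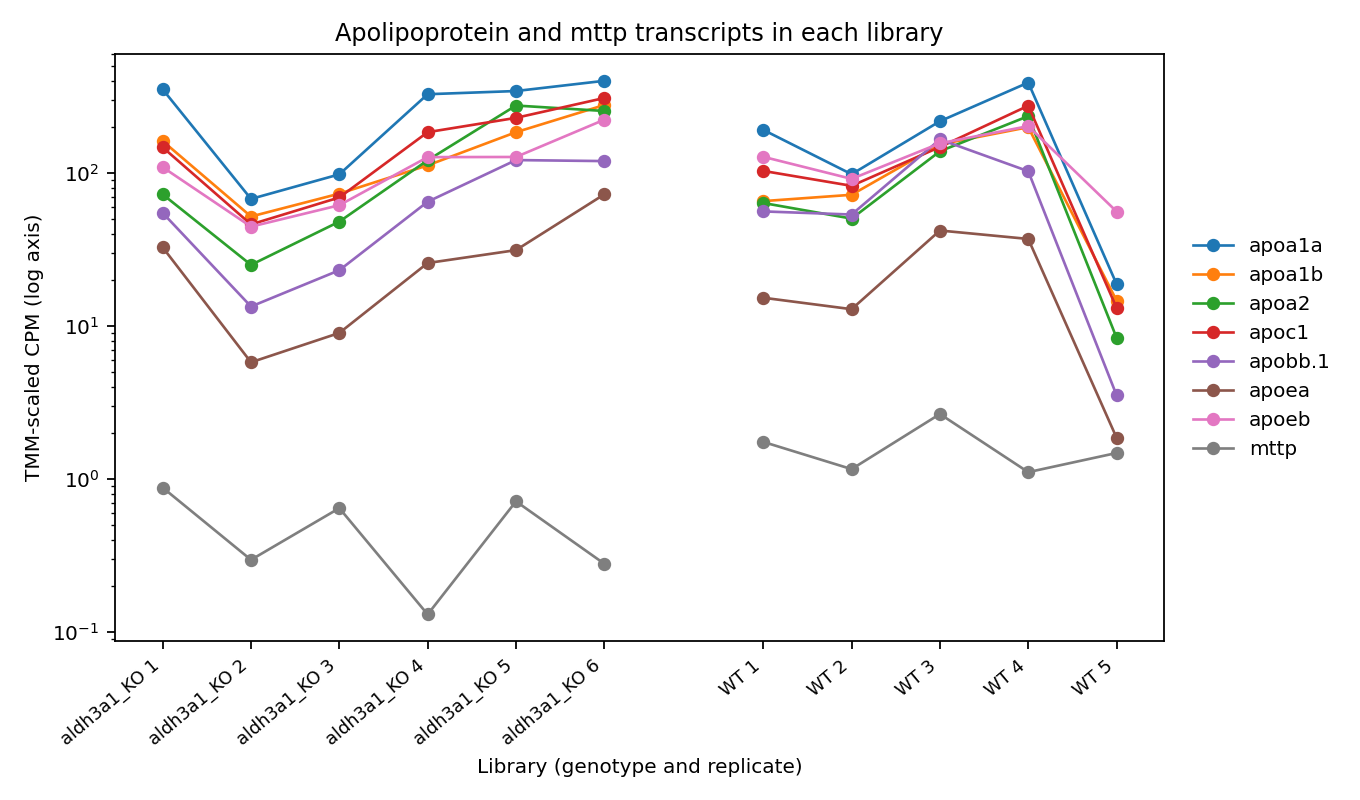
TMM-scaled CPM (log axis) of the 8 genes in each of the 6 aldh3a1_KO and 5 WT libraries; each point is 1 library, and lines only join the points of a gene. The 7 apolipoprotein genes share 1 shape, with their lowest values in aldh3a1_KO 2 and WT 5, and mttp lies lower in aldh3a1_KO than in WT.

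apoa1a and apoa1b encode the 2 zebrafish copies of apolipoprotein A-I, the main protein of high-density lipoprotein. apoa1a was at 68.0 to 403 CPM in aldh3a1_KO (median 337), and at 192, 98.7, 219, 392 and 18.9 CPM in WT 1 to 5. WT 5 was below every other library, and the other 4 WT libraries lay inside the aldh3a1_KO range. The log2 fold change was 0.53 ± 0.61 (SE, 95% interval -0.77 to 1.83, edgeR adjusted p = 0.474, n = 6 and 5). apoa1b was at 52.2 to 279.8 CPM in aldh3a1_KO (median 138) and at 65.8, 72.4, 154.5, 200.4 and 14.7 CPM in WT, with a log2 fold change of 0.51 (95% interval -0.66 to 1.68, edgeR adjusted p = 0.447). apoa2 encodes apolipoprotein A-II, a second protein of high-density lipoprotein. It was at 25.2 to 278 CPM in aldh3a1_KO (median 97.3) and at 64.0, 50.6, 139, 237 and 8.41 CPM in WT, with a log2 fold change of 0.42 (95% interval -1.11 to 1.95, edgeR adjusted p = 0.634). For these 3 genes the groups overlapped, and WT 5 was again the lowest library.

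apoc1 encodes apolipoprotein C-I, a small protein that, in mammals, restrains lipid transfer and lipolysis. It was at 46.3 to 311 CPM in aldh3a1_KO (median 167) and at 103.7, 82.8, 148.7, 277 and 13.2 CPM in WT. The log2 fold change was 0.40 (95% interval -0.88 to 1.68, edgeR adjusted p = 0.584), and the ranges overlapped.

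The apolipoprotein E genes encode ligands for receptors of the LDL receptor family. apoea was at 5.81 to 72.9 CPM in aldh3a1_KO (median 28.7) and at 15.4, 12.9, 42.3, 37.2 and 1.86 CPM in WT, with a log2 fold change of 0.43 (95% interval -1.03 to 1.89, edgeR adjusted p = 0.607). apoeb was at 44.8 to 224 CPM in aldh3a1_KO (median 119) and at 128, 92.0, 157, 204 and 56.3 CPM in WT. Its log2 fold change was -0.14 (95% interval -0.97 to 0.69, edgeR adjusted p = 0.78). apoeb had the smallest range of the 7 apolipoprotein genes, 5.01-fold between the lowest and highest aldh3a1_KO library and 3.62-fold in WT. In WT 5 it was at 56.3 CPM, where apoc1, its neighbour in the genome, was at 13.2 CPM. In zebrafish apoeb is also expressed outside the yolk syncytial layer, in the microglia of the brain among other places. Of 14 macrophage and microglia marker genes tested, 2 rose and 7 fell in aldh3a1_KO, where 26.0% of all genes tested rose and 29.3% fell. The summed level of all 17 on the list was 51.1 to 67.7 CPM in aldh3a1_KO and 84.3 to 122.5 CPM in WT. The gap in the sum lay in ctsba, a cathepsin gene, at 17.8 to 26.6 CPM in aldh3a1_KO and 51.8 to 81.1 CPM in WT. The other 16 summed to 26.7 to 47.1 CPM in aldh3a1_KO and 28.7 to 41.4 CPM in WT, which overlapped. Within that sum genes moved in opposite directions. spi1a (mean 15.9 CPM in aldh3a1_KO and 5.05 in WT) and p2ry12 (6.59 and 2.68) rose. lcp1 (1.25 and 6.51), mfap4.1 (1.85 and 5.16) and mpeg1.1 (0.287 and 1.51) were among those that fell. csf1ra (0.499 and 1.79) and grna (0.435 and 1.17) fell too. mpeg1.1, csf1ra and grna passed the count filter only through the WT libraries, where they are high. The directions of these genes were thus largely set by the filter. The part of these markers in the apoeb level was not tested.

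apobb.1 encodes a copy of apolipoprotein B, the large protein that stays with a particle from assembly to uptake. It was at 13.4 to 122.1 CPM in aldh3a1_KO (median 60.1) and at 56.4, 53.8, 167, 103.2 and 3.54 CPM in WT. It had the widest range in WT, 47.1-fold with WT 5 and 3.10-fold without it. The log2 fold change was -0.21 (95% interval -1.71 to 1.29, edgeR adjusted p = 0.815), and changes of that size in either direction lie within the interval. Each of the 7 apolipoprotein genes had between 39 and 7782 estimated counts in each library.

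mttp, the one gene of the 8 that changed, was also the least abundant. It was at 0.13 to 0.879 CPM in aldh3a1_KO (median 0.471) and at 1.75, 1.16, 2.66, 1.11 and 1.48 CPM in WT. Each aldh3a1_KO library was below each WT library, which was so for 20.0% of all genes tested, and the opposite order for 17.8%. The log2 fold change was -1.76 ± 0.46 (SE, 95% interval -2.74 to -0.79, edgeR adjusted p = 0.0049, n = 6 and 5). The gene had few counts, between 2 and 10.03 in the aldh3a1_KO libraries (33.8 in all) and between 22.02 and 54.3 in the WT libraries (167 in all). Too few aldh3a1_KO libraries reached the count filter of the fit, so mttp was tested only through the WT libraries. Its direction was thus largely set by the filter. With no filter the log2 fold change of mttp was -1.72 (edgeR adjusted p = 0.00688). WT 5, the lowest WT library for the 7 apolipoprotein genes, was the median WT library for mttp. The call held without each library in turn and without aldh3a1_KO 1, 5 and 6 together, where the log2 fold change was -2.16 (edgeR adjusted p = 0.00775). On log2(TPM + 1), where the added 1 exceeds the level of the gene in most libraries, the difference was -0.46 (limma adjusted p = 0.00148).

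**Figure D2:**
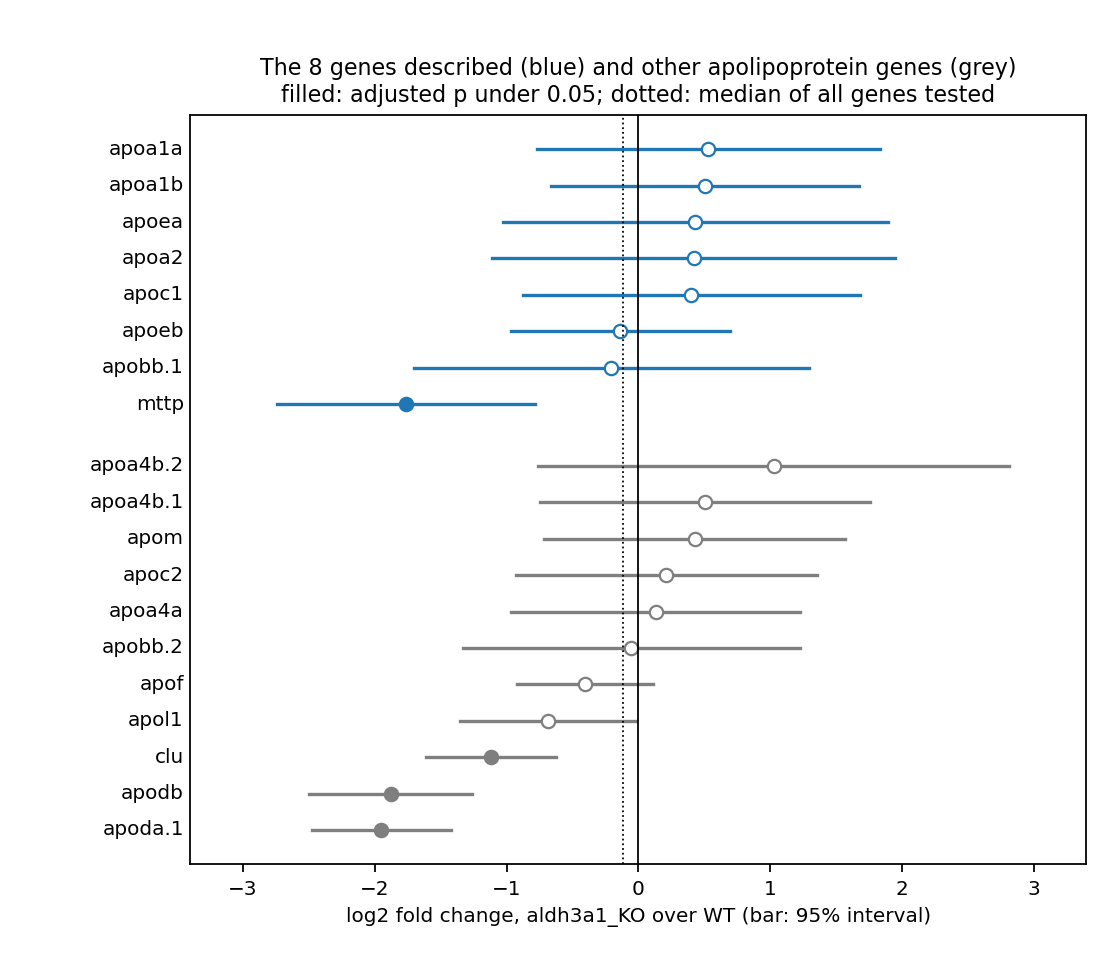
Log2 fold change of aldh3a1_KO over WT with its 95% interval for the 8 genes (blue) and 11 other apolipoprotein genes (grey); filled points passed an adjusted p of 0.05, and the dotted line is the median of all genes tested, -0.12. mttp lies at -1.76 with an interval below 0, and the intervals of the 7 apolipoprotein genes include 0.

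The genotype values of the 7 apolipoprotein genes rested on which libraries were included. Without WT 5 the log2 fold changes were 0.23 for apoa1a, 0.22 for apoa1b, 0.11 for apoa2, -0.53 for apobb.1, 0.10 for apoc1, 0.13 for apoea and -0.33 for apoeb (edgeR adjusted p from 0.427 to 0.891). Without aldh3a1_KO 2 all 7 were above 0, from 0.12 for apobb.1 to 0.83 for apoa1a (edgeR adjusted p from 0.244 to 0.893). Without aldh3a1_KO 1, 5 and 6 the log2 fold changes were -0.13 for apoa1a, -0.31 for apoa1b, -0.58 for apoa2, -1.13 for apobb.1, -0.28 for apoc1, -0.65 for apoea and -0.67 for apoeb. None of them passed (edgeR adjusted p from 0.246 to 0.913). That comparison keeps aldh3a1_KO 2 and 3, the lowest aldh3a1_KO libraries for all 7 genes. Over 22182 genes the median log2 fold change was -0.12, and on log2(TPM + 1) it was -0.26, so values near 0 depend on the scaling.

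TPM (each transcript's share of a library after division by its length, by the authors) allows levels to be compared between genes. Over all 11 libraries apoa1a averaged 276 TPM, apoa2 237, apoc1 234, apoa1b 116, apoeb 92.7, apoea 27.2, apobb.1 5.77 and mttp 0.347 TPM. The first 3 did not keep an order: apoa1a was above apoa2 in 4 of 6 aldh3a1_KO and 3 of 5 WT libraries, and apoa2 was above apoc1 in 2 of 6 and 2 of 5. apoc1 was above apoa1b in all 11 libraries. apoa1b was above apoeb in 6 of 6 aldh3a1_KO and 2 of 5 WT libraries. apoeb was above apoea, and apoea above apobb.1, in all 11, and apobb.1 was above mttp in all but WT 5. The 8 genes together took 0.108% ± 0.0573 of all TPM in aldh3a1_KO and 0.103% ± 0.0755 in WT (SD, n = 6 and 5). The range was 0.0327 to 0.163% in aldh3a1_KO and 0.0145 to 0.209% in WT, and the lowest libraries were aldh3a1_KO 2 and WT 5.

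Ratios within a library do not depend on its scaling, and were compared for 2 pairs of gene copies. The log2 ratio of apoa1b to apoa1a, on TPM + 0.1, averaged -1.17 ± 0.46 in aldh3a1_KO and -1.13 ± 0.50 in WT (SD, n = 6 and 5, exact two-sided permutation p = 0.855, adjusted over 2 pairs 0.855). It ran from -1.90 to -0.74 in aldh3a1_KO and from -1.91 to -0.72 in WT, and apoa1a was the more abundant copy in each of the 11 libraries. The log2 ratio of apoea to apoeb averaged -1.72 ± 0.53 in aldh3a1_KO and -2.51 ± 1.11 in WT (SD, n = 6 and 5, exact two-sided permutation p = 0.143, adjusted over 2 pairs 0.286). It was lowest in WT 5, at -4.33, and without WT 5 the difference was 0.33 in place of 0.78. The ratio of mttp to apobb.1 in TPM was chosen after the values were seen and has no test. It was 0.00804 to 0.108 in aldh3a1_KO and 0.127, 0.0873, 0.0651, 0.0434 and 1.70 in WT. WT 5 was far above all other libraries, WT 1 was above every aldh3a1_KO library, and WT 2 to 4 lay inside the aldh3a1_KO range. With 0.1 added to each TPM, which is near the level of mttp in several aldh3a1_KO libraries, WT 1 (0.145) lay inside it too (0.0226 to 0.165).

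**Figure D3:**
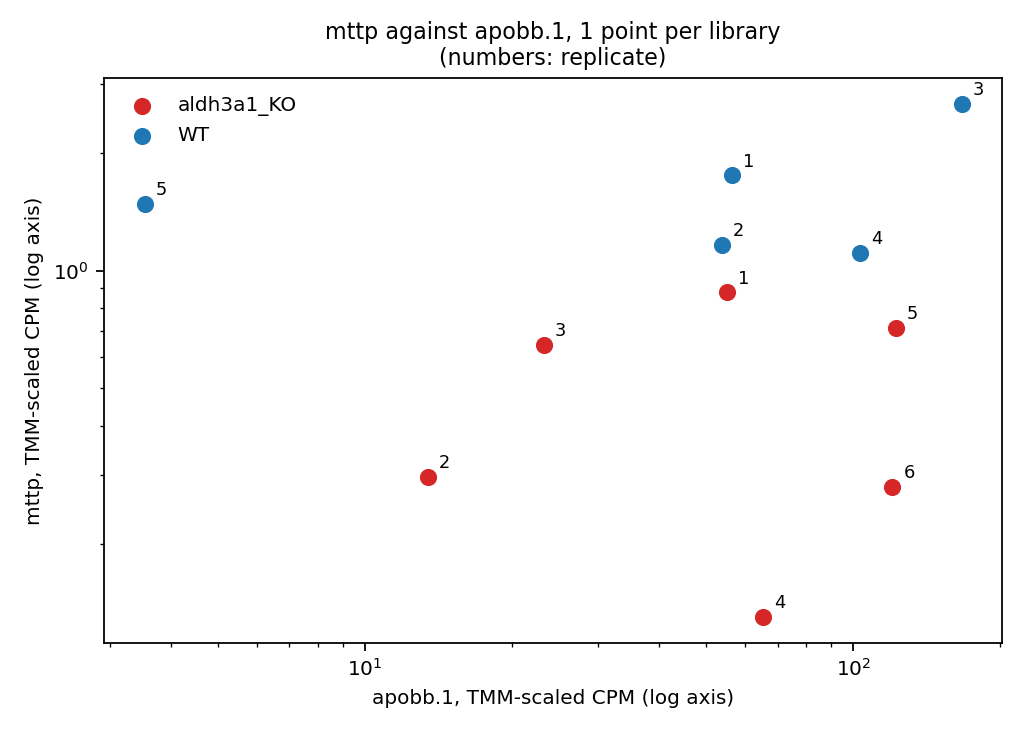
mttp against apobb.1 in TMM-scaled CPM (both axes log), 1 point per library, with replicate numbers. mttp is at most 0.879 CPM in aldh3a1_KO and at least 1.11 CPM in WT, at apobb.1 levels from 3.54 to 167 CPM.

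How the genes moved from library to library was described after taking out the mean of each genotype, on log2(CPM + 0.5). Among the 7 apolipoprotein genes the Pearson r of these deviations ran from 0.877 to 0.979 over the 21 pairs and 11 libraries, with a median of 0.953. Without WT 5 it ran from 0.864 to 0.975, and within the 6 aldh3a1_KO libraries alone from 0.863 to 0.988. mttp had an r of -0.02 to 0.16 with the same 7 genes. With 2 to 10.03 counts of mttp per aldh3a1_KO library, counting noise and the added 0.5 can lower its r. An r near 0 therefore does not show that mttp moved apart from them. These points share libraries, and with them depth and RNA makeup, so r is given as a description.

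**Figure D4:**
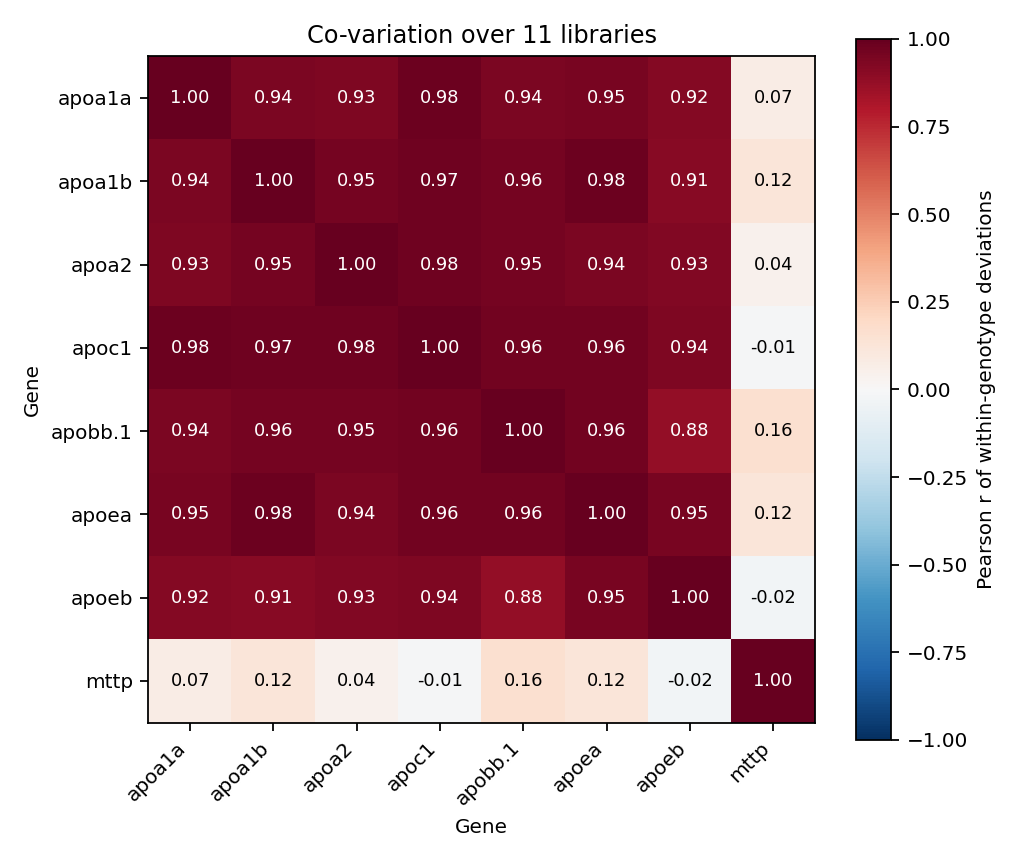
Pearson r between the 8 genes over 11 libraries, computed on deviations of log2(CPM + 0.5) from the mean of each genotype. The 7 apolipoprotein genes form 1 block with r of 0.877 or more, and the mttp row is close to 0. mttp had few counts, which can lower its r.

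The same libraries were at the ends for all of the apolipoprotein genes. aldh3a1_KO 2 was the lowest aldh3a1_KO library for 7 of 7 genes, and aldh3a1_KO 6 or 5 the highest, for 5 and 2 genes. WT 5 was the lowest WT library for 7 of 7, and WT 4 or 3 the highest, again for 5 and 2 genes. Libraries at the ends in mitochondrial share were in part the same and in part others. In aldh3a1_KO this share was lowest in aldh3a1_KO 4 (5.01%) and highest in aldh3a1_KO 1 (25.9%), neither at an end for any of the 7 genes. aldh3a1_KO 6 and 5, the highest for these genes, had shares of 20.9 and 19.8%, and aldh3a1_KO 2, the lowest, had 7.44%. In WT the share was highest in WT 4 (5.62%), also the highest WT library for 5 of the genes. It was lowest in WT 2 (4.63%), at no end for these genes, and WT 5 had 4.80%. The part of the mitochondrial share in the levels of the 7 genes was not tested. On log2(CPM + 0.5) WT 5 was below the mean of the other 4 WT libraries with a difference of -3.38 for apoa1a, -4.41 for apobb.1 and -1.30 for apoeb. At least 4-fold lower levels in WT 5 were found for 6 of the 8 genes and for 0.523% of all genes tested. WT 5 was below the other 4 WT libraries for 7 of the 8 genes and for 24.9% of all. Levels at least 4-fold lower in aldh3a1_KO 2 than the mean of the other 5 aldh3a1_KO libraries were found for apoa1a, apoa2, apobb.1 and apoea, and for 0.582% of all genes. WT 5 and aldh3a1_KO 2 stand out by the levels of these same genes, so the counts only describe them and are no test. The SD of log2(CPM + 0.5) in WT was 1.45 to 2.08 for the 6 apolipoprotein genes other than apoeb, 0.716 for apoeb and 0.395 for mttp, where the median of all genes was 0.264. Without WT 5 it was 0.757 to 1.02 for those 6 genes, 0.482 for apoeb and 0.455 for mttp, with a median of 0.239 over all genes. In aldh3a1_KO it was 0.825 to 1.36 for the 7 apolipoprotein genes and 0.444 for mttp, with a median of 0.468 over all genes. The added 0.5 is near the mean of mttp in aldh3a1_KO (0.491 CPM) and narrows its SD. In plain CPM mttp ranged 6.75-fold between aldh3a1_KO libraries, and the 7 apolipoprotein genes from 5.01-fold (apoeb) to 12.6-fold (apoea). The smaller SD therefore does not show that mttp was steadier.

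Some of these genes are neighbours. In the RefSeq gene order of the assembly GRCz12tu, apoeb, apoc1, apoc4, apoa2 and apoc2 follow each other, with apoa4b.2 on the other side of apoeb. apoea lies beside apoa4a, and apoa1a, apoa1b, apobb.1 and mttp have no other listed apolipoprotein gene among the 4 nearest coding genes on either side. The r of apoc1 was 0.977 with apoa2, of the same run of genes, and 0.979 with apoa1a, which lies elsewhere.

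Of 11 other apolipoprotein genes tested, 3 fell and 0 rose, with a median log2 fold change of -0.05 against -0.12 for all genes (edgeR; 0 rose at an unadjusted p under 0.05, or by DESeq2 or limma voom). The genes that fell were apoda.1 (-1.95 ± 0.25) and apodb (-1.88 ± 0.29), which encode lipocalins related to apolipoprotein D, and clu (-1.12 ± 0.23), which encodes the extracellular chaperone clusterin. Their edgeR adjusted p-values were 3.56e-05, 0.000129 and 0.00106. Over all genes tested, 29.3% fell and 26.0% rose. apol1 was at -0.68 (edgeR adjusted p = 0.076). apoc2, which encodes the activator of lipoprotein lipase, was at 5.92 to 39.3 CPM in aldh3a1_KO (median 19.4) and at 3.06 to 31.1 CPM in WT (median 15.2), with the lowest WT value in WT 5 (log2 fold change 0.21, edgeR adjusted p = 0.751). apoc4 had 4 counts over the aldh3a1_KO libraries and 0 over the WT libraries, and was not tested.

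The mean deviation of the 7 apolipoprotein genes in each library was used as a profile. Its values were lowest in aldh3a1_KO 2 (-1.61) and WT 5 (-2.53), and highest in aldh3a1_KO 6 (1.25) and WT 4 (1.42). Of all genes tested, 0.505% had an r of 0.8 or more with it. Among the other apolipoproteins 6 of 11 did, led by apoc2 (0.996), apoa4b.1 (0.972) and apom (0.956). Among liver markers 7 of 9 did, including fga (0.984), a fibrinogen chain gene, and tfa (0.933), the transferrin gene. Of the intestine markers 4 of 10 did, led by the fatty acid binding protein gene fabp1b.1 (0.981). Among yolk syncytial layer markers 1 of 5 did, afp4 (0.886), among its regulators 1 of 15, and among genes of lipoprotein assembly 1 of 21, pla2g12b. The other yolk syncytial layer markers tested were slc40a1, ctsla, ctslb and slc26a1. How particular each of the 5 is to that tissue was not tested. Among macrophage and microglia markers, skin markers, lipoprotein receptors and genes of lipolysis none did, of 14, 12, 20 and 12. The hepatocyte gene fabp10a, and mxtx1, mxtx2 and hnf4a of the yolk syncytial layer list, had too few counts to be tested. These counts therefore do not tell liver and yolk syncytial layer apart. Without the 2 libraries farthest from the median of the profile, WT 5 and aldh3a1_KO 2, the counts were 5 of 11 other apolipoproteins, 8 of 9 liver markers, 2 of 10 intestine markers, 0 of 5 yolk syncytial layer markers, 0 of 15 regulators, 1 of 21 assembly genes and 0.568% of all genes, and 1 of 12 skin markers passed.

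**Figure D5:**
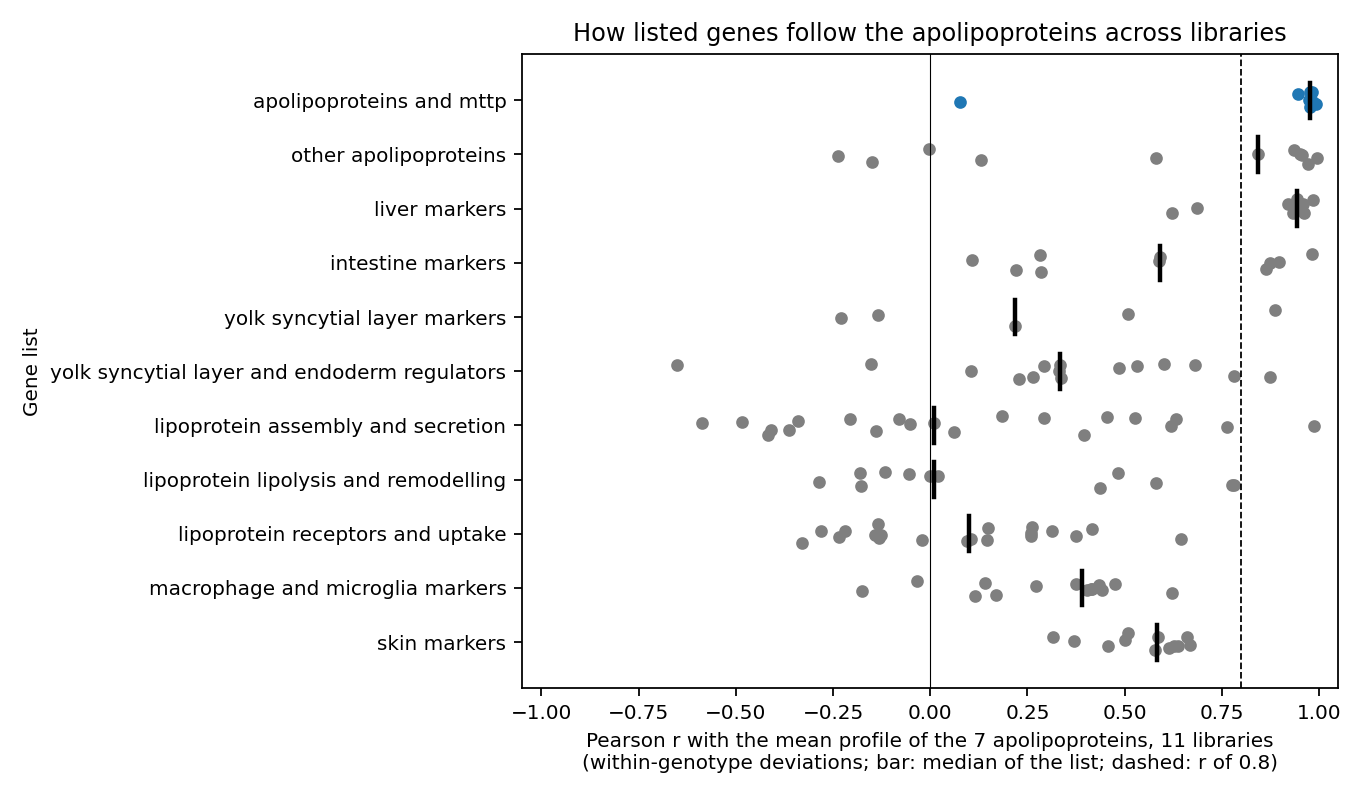
Pearson r over 11 libraries between each listed gene and the mean profile of the 7 apolipoprotein genes, which enter the first row; each point is 1 gene, the bar is the median of its list, and the dashed line is an r of 0.8. Liver markers and other apolipoproteins lie to the right, with medians of 0.943 and 0.844, and mttp lies near 0. mttp had few counts, which can lower its r.

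Some markers of the tissues that make these proteins were scarce, and others were not. fabp10a, a defining hepatocyte gene, had 37 counts over the aldh3a1_KO libraries and 27 over the WT libraries. mxtx2, a regulator of the yolk syncytial layer, had 4.5 and 3.5. On the same lists, tfa averaged 33.2 CPM in aldh3a1_KO and 24.7 CPM in WT, and ctsla 119 and 193 CPM. The summed level of the 15 liver markers was 29.3 to 209 CPM in aldh3a1_KO and 51.6 to 189.6 CPM in WT, and WT 5 held the WT minimum. Of 9 liver markers tested 0 passed with edgeR or DESeq2, 1 fell with limma voom and was lower at an unadjusted edgeR p under 0.05, and the median log2 fold change was 0.53. Of 10 intestine markers 3 rose and 3 fell, where 55.3% of all genes changed. Of those that rose, anpepb.1 and slc15a1a passed the count filter only through the aldh3a1_KO libraries, where they are high. The directions of both were thus largely set by the filter. The intestine list summed to 35.6 to 102.6 CPM in aldh3a1_KO and 54.8 to 111.7 CPM in WT. Of the yolk syncytial layer markers, 9 genes summed to 150.0 to 209 CPM in aldh3a1_KO and 239.7 to 336 CPM in WT, and 2 of 5 tested fell. These were ctsla, a cathepsin gene (log2 fold change -0.70), and slc40a1, the iron exporter gene (-0.72), which held most of the sum, with 126.4 to 197 CPM in aldh3a1_KO and 231 to 299 CPM in WT. The other 7 genes summed to 11.3 to 41.1 CPM in aldh3a1_KO and 8.26 to 37.7 CPM in WT, which overlapped. The part of these markers in the mttp difference was not tested.

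By the same r, the gene most like apoc1 was fga (r = 0.991), the one most like apobb.1 was pla2g12b (0.98), and apoc2 was the one most like apoa1b, apoa2 and apoea, with r from 0.979 to 0.985. The gene most like apoa1a was apoc1 (0.979), and the one most like apoeb was fabp1b.1 (0.968). Without WT 5 these genes stayed first for apoa1b and apoea, and were at rank 2 for apoa1a, apobb.1 and apoc1, rank 3 for apoa2 and rank 4 for apoeb. Those most like mttp, among 10150 genes of at least 10 CPM, were thbs4b (0.947), a thrombospondin gene, palm2akap2 (0.937) and myoc (0.935), the myocilin gene, and thbs4b was first without WT 5 too. Of these, thbs4b (-1.82) and myoc (-3.00) fell in aldh3a1_KO, and palm2akap2 did not pass (-0.19). Each r in this paragraph is among the highest picked from 10150 genes, and mttp had only 2 to 54.3 counts per library. The values are a description and no test.

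Among 21 tested genes of lipoprotein assembly and secretion, 4 rose and 10 fell, with a median log2 fold change of -0.35 against -0.12 for all genes. Over all genes tested, 26.0% rose and 29.3% fell. pla2g12b, which in zebrafish is needed to load lipid onto apolipoprotein B particles, did not pass (0.57, 95% interval -0.77 to 1.91, edgeR adjusted p = 0.457). It followed the profile of the apolipoproteins with an r of 0.988. surf4l and surf4 encode proteins related to a cargo receptor that carries lipoproteins out of the endoplasmic reticulum in mammals. surf4l was at 1.72 ± 0.727 CPM in aldh3a1_KO and 12.1 ± 2.72 CPM in WT (SD, n = 6 and 5, log2 fold change -2.79, edgeR adjusted p = 1.44e-05), and surf4 fell too (-1.23, 0.000204). mogat3b, an acylglycerol transferase gene, fell (-1.53). soat1, which encodes an enzyme that esterifies cholesterol, rose (2.03 ± 0.25, edgeR adjusted p = 3.35e-05), as did creb3l3b (2.19 ± 0.32), which encodes a membrane-bound transcription factor. p4hb, the partner subunit of the mttp protein, fell (-1.16 ± 0.23), and sar1b, a GTPase of vesicles that carry large particles, was at -0.12 (95% interval -0.49 to 0.25).

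Of 12 tested genes of lipolysis and remodelling, 3 rose and 3 fell, with a median of -0.39. The share changed over all genes tested was 55.3%. lpla, the lipoprotein lipase gene, fell to 9.08 ± 3.12 CPM in aldh3a1_KO, against 43.7 ± 12.5 CPM in WT (SD, n = 6 and 5, log2 fold change -2.26, edgeR adjusted p = 3.04e-05). pltp, the phospholipid transfer protein gene, fell (-1.86 ± 0.30). lmf1 (1.23 ± 0.15) and lmf2a (1.86 ± 0.54), genes of lipase maturation, rose. Without aldh3a1_KO 1, 5 and 6 lmf2a was at 0.38 (edgeR adjusted p = 0.41). Of 20 tested receptor and uptake genes, 4 rose and 3 fell, with a median of 0.03. These counts include lrp2b (1.83 ± 0.47) and mylipb (-1.92 ± 0.55). lrp2b passed the count filter only through the aldh3a1_KO libraries and mylipb only through the WT libraries, where each is high. Their directions were thus largely set by the filter. lrp8, an apolipoprotein E receptor gene, was at 1.4 ± 0.674 CPM in aldh3a1_KO and 10.2 ± 2.69 CPM in WT (SD, n = 6 and 5, log2 fold change -2.82, edgeR adjusted p = 2.52e-05). lrp1ba (2.34 ± 0.38) and the adaptor gene ldlrap1b (0.99 ± 0.20) rose and its copy ldlrap1a fell (-0.95 ± 0.21). The LDL receptor gene ldlra was at 0.02 (95% interval -0.39 to 0.42).

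Of 15 tested regulators of the yolk syncytial layer and endoderm, 8 rose and 2 fell, with a median of 0.76. Over all genes tested, 26.0% rose and 29.3% fell. hnf4b, a nuclear receptor gene, was at 7.41 ± 1.41 CPM in aldh3a1_KO and 2.0 ± 0.578 CPM in WT (SD, n = 6 and 5, log2 fold change 1.88, edgeR adjusted p = 5.67e-05). hnf1ba (1.47 ± 0.31) and foxa1 (0.76 ± 0.16) also rose. pparab (2.37 ± 0.47) and nr1h4 (2.60 ± 0.58) were higher too and are counted among the 8. Both passed the count filter only through the aldh3a1_KO libraries, where they are high, so their directions were largely set by the filter. hnf4a, whose mammalian counterpart activates apolipoprotein genes and mttp in liver, was not tested, with 22.3 over the aldh3a1_KO libraries and 87.03 over the WT libraries.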

How the data were processed

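Whole-embryo RNA was sequenced in 6 aldh3a1_KO and 5 WT libraries. Per the submitters' processing notes, trimming was by Trim Galore 0.6.4 and quantification by kallisto, whose version is given as 0.4.6, with the build danRer11. The authors deposited estimated counts per Entrez gene, which need not be whole, and a second table of TPM. Of 30243 identifiers, 25812 matched the RefSeq table of GRCz12tu, used for names and gene order only.

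Counts were rounded to whole numbers, filtered with filterByExpr, scaled by TMM and tested for genotype with the robust quasi-likelihood F test of edgeR 4.0.16 (R 4.3.3), two-sided, with Benjamini-Hochberg adjustment over every gene tested. Intervals are 95% and come from that fit. Ratios used exact permutation over 462 splits. One planned pair, apobb.1 with apoba, was not analysed, so 2 of 3 pairs were compared. Alternatives (other scalings, filters, tests and left-out libraries; those without WT 5 for spread and correlation, marker sums without their leading genes and the mttp to apobb.1 ratio with nothing added were chosen after the values were seen) used limma 3.58.1 and DESeq2 1.42.0, and plots matplotlib 3.10.9. The workflow was tested on simulated data. Members, lists and tests were chosen with earlier results of these data known. Genes named are the members, aldh3a1, in each list the 4 of smallest adjusted p, and the 3 most like each member. Further genes were added after their values were seen. pla2g12b, sar1b, p4hb, surf4, ldlra, hnf4a, apoc2, apoc4, apoa4b.1, apom and the markers were added for their roles. lrp2b, mylipb and nr1h4 were added for how they passed the count filter. Estimated counts of apoa1a, apoa1b and mttp were off whole numbers by up to 0.43, as reads shared between transcripts give.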

Additional observations from a re-analysis of the deposited data

How the results depend on the processing

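The mttp call held under all 22 alternatives (adjusted p from 0.00115 to 0.0178), and none of the 7 apolipoprotein genes passed under any of the same 22. The filter of at least 1 CPM in 5 samples admitted mttp only through the WT libraries, as did the filter of the main fit. Its direction under both was thus largely set by the filter. With no filter mttp was at -1.72 (edgeR adjusted p = 0.00688). The directions of the 7 apolipoprotein genes were not stable. Without aldh3a1_KO 1, 5 and 6 the log2 fold change turned to -0.13 for apoa1a, -0.31 for apoa1b, -0.58 for apoa2, -0.28 for apoc1 and -0.65 for apoea, and to -0.61 for apoc2, -0.48 for pla2g12b and -0.33 for fabp1b.1. Leaving out 1 library at a time gave -0.53 to 0.28 for apobb.1, -0.33 to 0.13 for apoeb, -0.068 to 0.51 for apoc2, -0.29 to 0.0014 for palm2akap2 and -0.24 to 0.10 for the difference in the apoa1b to apoa1a log2 ratio. For apoc2, limma voom with quality weights gave -0.075, and leaving out WT 5 gave -0.068. The replicate number as a block gave -0.0045 for apoa2 and -0.0022 for apoc2 and 11125 genes changed. That fit also leaves out aldh3a1_KO 6, and without this library and with no block 11248 genes changed and apoa2 was at 0.24. The r of deviations of same-numbered libraries was 0.0224 to 0.178 over 5 pairs, over 0.1 in 3, so a pairing was not assumed, and 1 of 5 aldh3a1_KO libraries had its highest r with its own number. With the block mttp was at -1.61 (adjusted p = 0.0128). The cause of each turn was not tested.

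Under the alternatives 11034 to 14550 genes changed over all genes tested. Of the changed genes 47.0% rose with TMM, 53.6% with upper-quartile factors, 52.0% with DESeq2 size factors and 35.5% on log2(TPM + 1). Outside the members, apol1 passed under 4 alternatives (adjusted p from 0.0121 to 0.0447), aldh3a1 on log2(TPM + 1) and log2(TPM + 0.1) (0.03 and 0.0387), and lmf2a failed under 3 (0.0556 to 0.41). With limma voom 7 of 12 lipolysis genes fell, against 3 with edgeR. The mttp value rests on 2 to 10.03 counts per aldh3a1_KO library, so its size is less certain than its call.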

Other observations

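The vitellogenins, the yolk precursor proteins made by the adult female liver, had few counts, and 2 of 7 could be tested. vtg8 was at 0.652 to 2.11 CPM in aldh3a1_KO and 0 to 0.101 CPM in WT (log2 fold change 4.62 ± 0.57, SE, n = 6 and 5). vtg3 was at 0.355 to 1.67 CPM in aldh3a1_KO and 0 to 0.303 CPM in WT (2.89 ± 0.65). Both passed the count filter only through the aldh3a1_KO libraries, where they are high. Their direction was thus largely set by the filter, and their p-values are not given. vtg3 was tested under only 8 of the 22 alternatives. Summed over 7 vitellogenin genes, the libraries held 1.24 to 7.82 CPM in aldh3a1_KO and 0 to 0.908 CPM in WT, which is 21.7 to 94.1 and 0.5 to 18.1 estimated counts per library. Some vitellogenin genes are near copies of each other, so the split of reads between such copies is uncertain, and their sequences were not compared here.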
